A study of Thermothelomyces thermophilus ATCC 42464 with 24 samples.

Results

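Gene expression of the thermophilic, cellulose-degrading fungus Myceliophthora thermophila was compared at 4 d on Avicel, a microcrystalline cellulose, between 2 libraries labelled ΔlaeA and 2 libraries of the wild type (WT, ATCC 42464). The 4 libraries were taken by their labels, out of 23 libraries with read counts in the series. All 4 came from mycelium grown at 45 °C in Vogel's salts with 2% Avicel, and they differed by label only in genotype. According to the methods, the coding region of laeA had been replaced by a marker cassette with the help of Cas9, and the number of independent transformants behind the libraries was not given in the sources used here. The totals were 22276578 and 33937501 counts in WT replicates 1 and 2, and 26960265 and 22242681 counts in replicates 1 and 2 labelled ΔlaeA. Libraries of the same strains at 2 d and 6 d, 4 on each day, served for comparison. The study calls the Avicel replicates biological, but no label names separate cultures, so the p-values cover the spread between these libraries alone, which may be technical.

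LaeA is a putative methyltransferase of the nucleus, known in Aspergillus and other filamentous fungi as a global regulator of secondary metabolism, the making of pigments, toxins and other compounds that growth does not require. On cellulose, fungi of this group secrete cellobiohydrolases, endoglucanases, β-glucosidases and copper-dependent oxidases (lytic polysaccharide monooxygenases, first classed as GH61), and take up the cello-oligosaccharides released. In Neurospora and Aspergillus these genes are switched on by zinc cluster transcription factors such as CLR-1, CLR-2 and XlnR and are held down on glucose by the carbon catabolite repressor CRE-1.

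The deleted gene was examined first. laeA (Mycth_2294559) stood at 9.88 and 7.43 CPM in WT against 258 and 268 CPM in the libraries labelled ΔlaeA, as TMM-scaled counts per 1000000 counts (CPM). Both libraries labelled ΔlaeA were far above both WT libraries, against the label of a deletion. The log2 fold change (ΔlaeA over WT, ± SE) was 4.93 ± 0.21, with an adjusted p of 1.41e-10 (edgeR quasi-likelihood test). The same order was found at 2 d, with 10.4 and 10.1 CPM in WT and 222 and 225 CPM in the libraries labelled ΔlaeA, and at 6 d, with 93.7 and 128 and 283 and 304 CPM. From counts per gene, the origin of these reads within the locus cannot be seen. Every direction below therefore rests on the labels, and the libraries are called by them.

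The 2 WT libraries of 4 d were less alike than the other pairs on Avicel. Counting genes whose higher library reached 10 CPM, 322 were at least 2-fold apart in the WT pair, against 107 in the pair labelled ΔlaeA at 4 d and 1 to 47 in the 4 pairs of 2 d and 6 d. Of the 322 genes, 244 were higher in WT replicate 2 (2.76% of all genes tested) and 78 in WT replicate 1 (0.884%). The changes were therefore split by whether they held against each WT library alone. Calls required a 2-fold change or more together with an adjusted p (Benjamini-Hochberg) below 0.05. A call was said to hold against both WT libraries when it was also made, in the same direction, in a fit without WT replicate 1 and in a fit without WT replicate 2. In a fit with a lone WT library, that library is assumed to vary like the other groups.

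With both WT libraries, 809 of 8827 genes were called higher (9.17%) in the libraries labelled ΔlaeA and 878 were called lower (9.95%). Against both WT libraries 516 genes held as higher (5.85%) and 608 as lower (6.89%), and 222 and 325 of these changed at least 4-fold. A further 515 genes were higher against WT replicate 1 only, 209 of them called with both WT libraries in the fit, whereas 59 were higher against WT replicate 2 only. Lower against WT replicate 1 only were 351 genes, and lower against WT replicate 2 only 108. Opposite calls were made for 10 genes, higher against WT replicate 1 and lower against WT replicate 2. In all 574 higher calls (6.5%) and 459 lower calls (5.2%) rested on 1 WT library, most of them on replicate 1. A call rests on 1 WT library when it missed a threshold against the other, which does not show that the difference was absent there. Of the 515 genes higher against WT replicate 1 only, 450 had groups that did not overlap. The median log2 fold change of the 515 genes against WT replicate 2 was 0.74. Of the 351 genes lower against WT replicate 1 only, 343 had groups that did not overlap. Over all genes tested, the libraries labelled ΔlaeA lay above both WT libraries in 35.9% and below both in 33.8%. Of the 6588 genes not called, 4017 had groups that did not overlap. All 516 and 608 genes that held had groups that did not overlap, so this order adds nothing to a held call. The median of the 351 genes against WT replicate 2 was -0.77. In bulk mycelium, fewer cells of a type and less RNA per cell cannot be told apart.

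**Figure D1:**
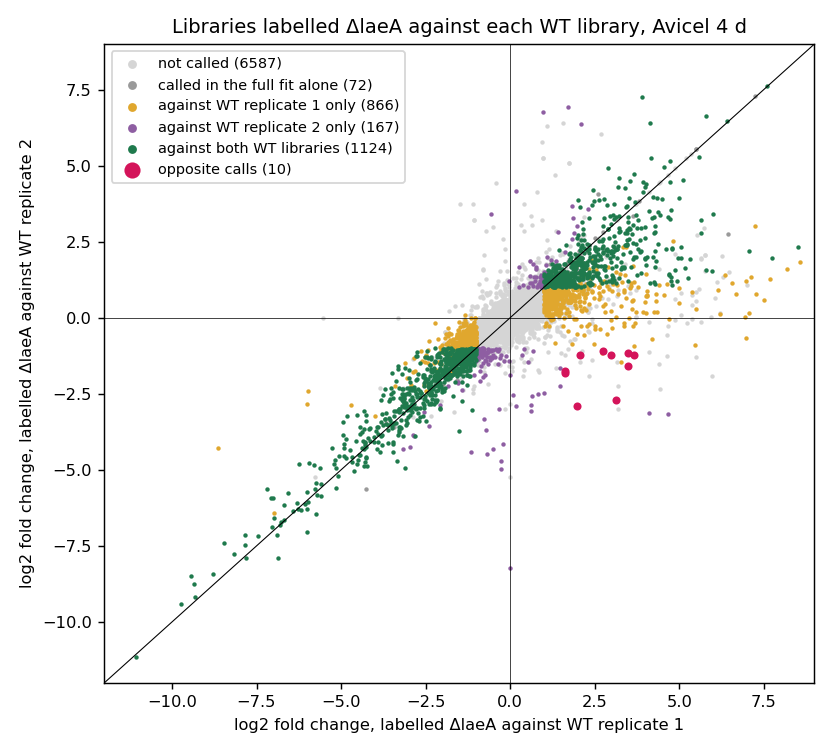
Log2 fold change of the libraries labelled ΔlaeA against WT replicate 1 alone (x axis) and against WT replicate 2 alone (y axis) at 4 d on Avicel, 1 point a gene, coloured by the WT library against which the call was made, with the number of genes in the key. The 1124 genes called against both WT libraries lie near the diagonal or to its right when higher, and the 10 genes with opposite calls lie at the lower right. 1 gene without a value in a fit with a single WT library is not drawn.

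Regulators were considered first, in a list made here from genes the study names by ID, so that their direction is not independent evidence. The list holds activators and repressors of cellulase genes and laeB, which is not among the cellulase regulators the study names, while the repressor cre-1 is given below with the growth regulators. clr-2 (Mycth_38704), an activator of the response to cellulose in Neurospora, stood at 88.6 and 289 CPM in WT against 1213 and 1008 CPM in the libraries labelled ΔlaeA. Both WT libraries lay below both others, and WT replicate 1 lay lowest. The log2 fold change was 2.56 ± 0.44 (edgeR adjusted p = 0.000475), with 3.65 against WT replicate 1 and 1.94 against WT replicate 2. xlnR (Mycth_2310145), the activator of xylanase and cellulase genes in Aspergillus, stood at 201 and 641 CPM in WT against 1967 and 2140.1 CPM in the libraries labelled ΔlaeA. Its groups did not overlap, and it rose by 2.29 ± 0.36 on the log2 scale (adjusted p = 0.000181), by 3.35 against WT replicate 1 and 1.68 against WT replicate 2. laeB (Mycth_2295350), which the study named as a LaeA-like methyltransferase gene, was at 65.3 and 143 CPM in WT against 391 and 406 CPM in the libraries labelled ΔlaeA. This rise was 1.94 ± 0.31 (adjusted p = 0.000193) and held against both WT libraries.

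Of the 7 genes in the list, which leaves out cre-1, these 3 were called higher and held and 3 were higher against WT replicate 1 only. Over all genes tested, the shares were 5.85% and 5.83%. clr-1 (Mycth_2298863), the partner of CLR-2 in Neurospora, was at 223 and 382 CPM in WT against 512 and 485 CPM in the libraries labelled ΔlaeA, with 1.16 against WT replicate 1 and 0.38 against WT replicate 2. amyR (Mycth_2301920), a regulator of starch use, was at 214 and 284 CPM in WT against 545 and 414 CPM in the libraries labelled ΔlaeA, with 1.16 against WT replicate 1 and 0.75 against WT replicate 2. hac1 (Mycth_2310995), the transcription factor of the unfolded protein response, was at 645 and 1406 CPM in WT against 1549 and 1312 CPM in the libraries labelled ΔlaeA. WT replicate 2 thus lay between the libraries labelled ΔlaeA for hac1, and the fold change with both WT libraries was 0.48 ± 0.23 (edgeR adjusted p = 0.110). The orthologue of the Neurospora factor NCU10006 (Mycth_90344) gave 0.71 ± 0.27, past the adjusted p (0.0467) but not 2-fold.

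Of 4 growth regulators, 1 held as lower against both WT libraries, where 6.89% of all genes did. grf-1 (Mycth_37566), which the study grouped with grf-2, grf-3 and cre-1 as growth regulatory factors, stood at 178 and 210.1 CPM in WT against 76.1 and 85.5 CPM in the libraries labelled ΔlaeA. The groups did not overlap and the fall, with a log2 fold change of -1.26 ± 0.19 (edgeR adjusted p = 9.34e-05), held against both WT libraries. cre-1 (Mycth_2310085), the carbon catabolite repressor, was at 1679 and 1045 CPM in WT against 606 and 565 CPM in the libraries labelled ΔlaeA. It was called lower (-1.22 ± 0.23, adjusted p = 0.000538), but without WT replicate 1 the difference was -0.84 and the call ended. grf-2 (Mycth_2089183) and grf-3 (Mycth_2309668) gave -0.04 ± 0.16 and -0.11 ± 0.17 and did not pass (adjusted p of 0.850 and 0.633).

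**Figure D2:**
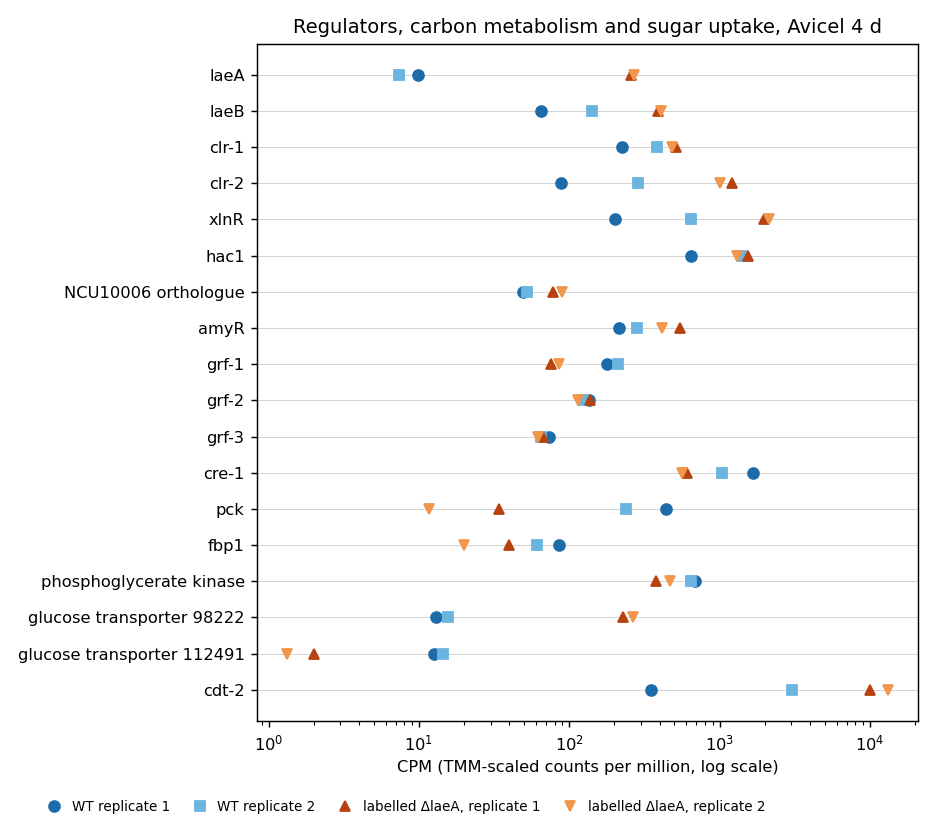
CPM (log scale, x axis) of laeA, of regulators and of genes of carbon metabolism and sugar uptake in each of the 4 libraries at 4 d on Avicel, 1 row a gene and 1 point a library. For clr-2, xlnR and cdt-2 the points run from WT replicate 1 through WT replicate 2 to the libraries labelled ΔlaeA, whereas the WT pair lies close together for the glucose transporter genes.

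Cellulose-active enzymes were taken from gene descriptions in the part of a supplementary table that was at hand, 20 genes, all tested. Their CPM summed to 3988 and 24742 in WT replicates 1 and 2, and to 40591 and 35737 in the libraries labelled ΔlaeA. The WT pair was therefore further apart in this sum than WT replicate 2 was from either library labelled ΔlaeA. Of the 20 genes, 14 were at least 2-fold higher in WT replicate 2 than in WT replicate 1 and 0 the other way. Against both WT libraries 5 genes were higher and 2 lower, 11 more were higher against WT replicate 1 only, and 1 had opposite calls. Of all genes tested, 5.85% were higher and 6.89% lower against both WT libraries. A further 5.83% were higher against WT replicate 1 only, and 10 genes had opposite calls. The median log2 fold change was 1.35 with both WT libraries, 3.14 against WT replicate 1 and 0.65 against WT replicate 2, where all genes tested had medians of 0.01, 0.04 and 0.01.

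The 5 genes that held as higher were 2 of the hydrolases and 3 GH61 genes. The endoglucanase gene Mycth_116157, for an enzyme that cuts within cellulose chains, stood at 62.6 and 256 CPM in WT against 981 and 1004 CPM in the libraries labelled ΔlaeA, a rise of 2.64 ± 0.43 (edgeR adjusted p = 0.000302), with 3.99 against WT replicate 1 and 1.95 against WT replicate 2. Both WT libraries were below, WT replicate 1 by far. The cellobiohydrolase gene Mycth_109566, for an enzyme that frees cellobiose from chain ends, stood at 509 and 4991 CPM in WT against 13272 and 13085 CPM in the libraries labelled ΔlaeA. Its rise was 2.26 ± 0.72 (adjusted p = 0.0238), with 4.69 against WT replicate 1 and 1.40 against WT replicate 2. This call ended without either library labelled ΔlaeA (2.25 and 2.26, edgeR adjusted p of 0.0580 and 0.0706), and among the Avicel libraries alone its adjusted p was 0.0794. GH61I (Mycth_111088) was at 254 and 2172 CPM in WT against 5512 and 4235 CPM in the libraries labelled ΔlaeA, with 4.26 against WT replicate 1 and 1.16 against WT replicate 2, and its call ended without replicate 1 labelled ΔlaeA (1.81, adjusted p = 0.0773) and among the Avicel libraries alone (adjusted p = 0.108). GH61M (Mycth_2063480) and a further GH61 gene (Mycth_2053130) rose by 1.81 ± 0.45 and 1.33 ± 0.30. All 5 had both libraries labelled ΔlaeA above both WT libraries, as did all 516 genes that held as higher, so this order adds nothing to the calls. When only the 4 libraries were fitted, the calls of all but Mycth_2053130 ended.

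A further GH61 gene (Mycth_2044732) and a gene with a family 9 carbohydrate-binding module (Mycth_2065691) were called with both WT libraries in the fit and held against replicate 1 only, at up to 1.21 and 4.58 CPM. Both calls ended without either library labelled ΔlaeA.

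Other genes of the list show how the WT libraries differed, of which Mycth_112089, Mycth_109444, Mycth_101354 and Mycth_100518 were chosen after their values were seen. Some were highest in WT replicate 2. GH61A (Mycth_112089) stood at 281 and 2892 CPM in WT against 1593 and 1557 CPM in the libraries labelled ΔlaeA, so that the libraries labelled ΔlaeA lay between the WT libraries. The same order held for the endoglucanase gene Mycth_109444 and for Mycth_112399, with a cellulose-binding module (CBM1), at 14.3 and 342 CPM in WT against 215 and 144 CPM in the libraries labelled ΔlaeA. In the latter the difference was 3.66 against WT replicate 1 and -0.93 against WT replicate 2, a gap that is the rule by which this gene was picked. Mycth_101354, also with a CBM1, had opposite calls, at 38.0 and 371 CPM in WT against 229 and 87.8 CPM in the libraries labelled ΔlaeA. By contrast, GH61W (Mycth_100518), at 172 and 1726 CPM in WT against 4334 and 2957 CPM in the libraries labelled ΔlaeA, and cbdA (Mycth_111388), the cellobiose dehydrogenase that passes electrons to the GH61 oxidases, at 136 and 3103 CPM in WT against 4748 and 3894 CPM in the libraries labelled ΔlaeA, were above both WT libraries. The fold changes of these 2 genes with both WT libraries did not pass (edgeR adjusted p of 0.176 and 0.182). Of the 8 GH61 genes, 3 held and 5 were higher against WT replicate 1 only.

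The 2 genes that fell held against both WT libraries and differed little within the WT pair. A Barwin-related endoglucanase gene (Mycth_2090891) stood at 375 and 320.3 CPM in WT against 38.3 and 30.5 CPM in the libraries labelled ΔlaeA, a log2 fold change of -3.34 ± 0.39 (edgeR adjusted p = 8.08e-06). A β-glucosidase gene (Mycth_2059579), for an enzyme that splits cellobiose to glucose, stood at 1288 and 1527 CPM in WT against 467 and 396 CPM in the libraries labelled ΔlaeA, with -1.71 ± 0.18 (adjusted p = 2.29e-06). The other β-glucosidase gene of the list, Mycth_115968, chosen after its values were seen, was at 268 and 1865 CPM in WT against 2606 and 3178 CPM in the libraries labelled ΔlaeA and did not pass with both WT libraries (1.44 ± 0.57, adjusted p = 0.0573).

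Enzymes of hemicellulose and pectin moved in both directions. Of 24 genes, 4 held as higher (5.85% of all genes did) and 4 as lower (6.89% of all genes), 6 were higher against WT replicate 1 only (5.83% of all genes) and 1 had opposite calls, with a median log2 fold change of 0.29. A GH43 gene (Mycth_2064169) rose from 6.70 and 32.9 CPM in WT to 101 and 116 CPM, by 2.44 ± 0.62 (edgeR adjusted p = 0.00663, and 0.161 when only the 4 libraries were fitted, which ended the call), a β-galactosidase gene (Mycth_2094324) by 2.15 ± 0.29 and the xylanase gene Mycth_116553 by 1.73 ± 0.23. The falls were larger. An α-mannanase gene (Mycth_104570) stood at 314 and 245.4 CPM in WT against 0.792 and 0.620 CPM in the libraries labelled ΔlaeA, with -8.61 ± 0.65 (adjusted p = 2.36e-07). The β-galactosidase or glucuronidase gene Mycth_114497 stood at 1982 and 1683 CPM in WT against 60.2 and 76.8 CPM in the libraries labelled ΔlaeA, with -4.74 ± 0.26. A second GH43 gene (Mycth_2072383) and a carbohydrate esterase gene (Mycth_105128) fell as well, by -3.58 and -3.25 as log2 fold changes (-4.08 for the latter without replicate 1 labelled ΔlaeA). In these 4 genes the WT libraries were within 2-fold of each other and above both others. The xylanase gene and the falls of the last pair were chosen after their values were seen.

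The next genes of xylan use were picked because their change differed most between the fits with a single WT library. Their wide WT pair is thus the rule that picked them. Of the 24 hemicellulose and pectin genes, 7 were at least 2-fold higher in WT replicate 2 than in WT replicate 1 and 0 the other way. The GH11 xylanase gene Mycth_100068 had 47 counts as deposited in WT replicate 1, 8548 in WT replicate 2, and 11659 and 7683 in the libraries labelled ΔlaeA. It was higher by 7.51 against WT replicate 1, by 0.60 against WT replicate 2, and did not pass with both in the fit (1.59 ± 1.16, edgeR adjusted p = 0.297). An acetylxylan esterase gene (Mycth_2066457), for an enzyme that trims xylan side groups, stood at 3.53 and 285 CPM in WT against 194 and 116 CPM in the libraries labelled ΔlaeA. Its libraries labelled ΔlaeA lay between the WT libraries, and the difference was 5.46 and -0.88.

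Sugar uptake changed by gene. cdt-2 (Mycth_114107), orthologue of a cellodextrin transporter of Neurospora, stood at 348 and 3015 CPM in WT against 10063 and 13267 CPM in the libraries labelled ΔlaeA. Both libraries labelled ΔlaeA were the highest and WT replicate 1 the lowest. The log2 fold change was 2.79 ± 0.64 (edgeR adjusted p = 0.00370), with 5.07 against WT replicate 1 and 1.95 against WT replicate 2, and its adjusted p was 0.163 when only the 4 libraries were fitted. The glucose transporter gene Mycth_98222 stood at 13.1 and 15.7 CPM in WT against 227 and 264 CPM in the libraries labelled ΔlaeA, where the WT pair was close and the rise was 4.09 ± 0.19 (adjusted p = 2.33e-10). The second glucose transporter gene of the study, Mycth_112491, was low in all libraries, at 12.6 and 14.5 CPM in WT against 2.001 and 1.34 CPM in the libraries labelled ΔlaeA, and fell, with -3.01 ± 0.50 (adjusted p = 0.000315).

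Of 14 sugar transporter genes by description, 2 held as higher and 3 as lower, and 1 was higher against WT replicate 1 only. Of all genes tested, 5.85% held as higher, 6.89% held as lower and 5.83% were higher against WT replicate 1 only. Besides cdt-2, Mycth_103797 rose from 6.21 and 11.4 to 41.5 and 60.998 CPM (2.53 ± 0.41). Mycth_2060238, at 43.004 and 35.8 CPM in WT against 7.92 and 8.20 CPM in the libraries labelled ΔlaeA, fell with -2.29 ± 0.26 (edgeR adjusted p = 4.49e-06). Of 24 other genes of the major facilitator family, 3 held as higher and 1 as lower in edgeR, and 0 as lower in DESeq2. The lower one in edgeR (Mycth_107763) stood at 51.0 and 24.0005 CPM in WT against 0.750 and 4.63 CPM in the libraries labelled ΔlaeA, a log2 fold change of -3.82 ± 0.81, and -3.02 and -5.65 without replicates 1 and 2 labelled ΔlaeA. Its call ended when only the 4 libraries were fitted (adjusted p = 0.0980).

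Genes of gluconeogenesis were called lower. pck (Mycth_2315623), for phosphoenolpyruvate carboxykinase, the entry step of glucose synthesis from non-sugar carbon, stood at 439 and 237 CPM in WT against 33.9 and 11.7 CPM in the libraries labelled ΔlaeA. The groups did not overlap. The log2 fold change was -3.89 ± 0.52 (edgeR adjusted p = 4.86e-05), with -4.26 against WT replicate 1 and -3.38 against WT replicate 2, and -4.86 without replicate 1 labelled ΔlaeA. fbp1 (Mycth_2306943), for fructose-1,6-bisphosphatase of the same pathway, was at 85.0 and 60.7 CPM in WT against 39.6 and 20.03 CPM in the libraries labelled ΔlaeA. Its fall (-1.29 ± 0.47, adjusted p = 0.0435) ended without WT replicate 1 (-1.03) and without replicate 2 labelled ΔlaeA (-0.90). Phosphoglycerate kinase (Mycth_2316240), of glycolysis, gave -0.65 ± 0.14, past the adjusted p (0.00202) but not 2-fold. Of the 6 carbon metabolism genes the study had chosen, 2 held as higher and 2 as lower, where 5.85% and 6.89% of all genes did.

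Enzymes that act on fungal wall glucan and chitin were split. Of 16 genes, 4 held as higher and 2 as lower, where 5.85% and 6.89% of all genes did. An exo-β-1,3-glucanase gene (Mycth_102522) stood at 3601 and 2814 CPM in WT against 17.4 and 14.3 CPM in the libraries labelled ΔlaeA, a log2 fold change of -7.66 ± 0.35 (edgeR adjusted p = 2.33e-10). A GH71 gene (Mycth_140261), of a family that cuts α-1,3-glucan, was at 443 and 309 CPM in WT against 13.7 and 13.1 CPM in the libraries labelled ΔlaeA, with -4.81 ± 0.34. In both genes the WT libraries were close and far above the others. The chitinase gene Mycth_113450 rose, at 267 and 564 CPM in WT against 1694 and 1951 CPM in the libraries labelled ΔlaeA, by 2.13 ± 0.33 (adjusted p = 0.000115), with 2.77 against WT replicate 1 and 1.69 against WT replicate 2.

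Among genes that held, 93 fell at least 16-fold and 22 rose as much. A gene described as a lipase (Mycth_100838) stood at 788 and 751 CPM in WT against 7.09 and 7.30 CPM in the libraries labelled ΔlaeA, with a log2 fold change of -6.74 ± 0.18 (edgeR adjusted p = 5.84e-13). A gene with the description of a necrosis inducing factor (Mycth_108493) was at 487 and 369.8 CPM in WT against 3.21 and 4.48 CPM in the libraries labelled ΔlaeA (-6.80 ± 0.58) and a carboxypeptidase A gene (Mycth_111035), for a peptidase of the M14 family, at 146 and 65.4 CPM in WT against 1.29 and 0.858 CPM in the libraries labelled ΔlaeA (-6.60 ± 0.49). N,O-diacetylmuramidase (Mycth_107866), an enzyme that cuts bacterial wall peptidoglycan, was at 901 and 942 CPM in WT against 60.8 and 49.98 CPM in the libraries labelled ΔlaeA (-4.06 ± 0.68). All 4 thus fell to a small part of the WT level in both libraries. A pyridine nucleotide-disulphide oxidoreductase gene (Mycth_112714) had 6296 and 4935 counts in WT against 5 and 15 in the libraries labelled ΔlaeA, with -9.03 ± 0.54 (-8.37 and -10.14 without replicates 1 and 2 labelled ΔlaeA). A gene of the regulators of G protein signalling (Mycth_112362), proteins that switch off G protein signals, fell from 149.8 and 65.8 to 0.250 and 4.67 CPM, by -5.48 ± 0.86 as log2 fold change, and by -4.53 and -8.74 without replicate 1 and without replicate 2 labelled ΔlaeA. Its call ended when only the 4 libraries were fitted (edgeR adjusted p = 0.106).

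Among genes with no description, Mycth_50608 fell from 8800.2 and 7065 CPM to 7.46 and 13.2 CPM, a log2 fold change of -9.59 ± 0.57 (edgeR adjusted p = 9.62e-09). Mycth_2126295 had 4103 and 6501 counts in WT and 0 and 4 in the libraries labelled ΔlaeA, with -11.11 ± 0.65, and -10.06 and -15.25 without replicates 1 and 2 labelled ΔlaeA. Among rises of this kind were those of Mycth_2112989, at 1.44 and 0.789 CPM in WT against 72.2 and 86.8 CPM in the libraries labelled ΔlaeA (6.19 ± 0.42), and Mycth_75366, at 0.745 and 0.921 CPM in WT against 29.97 and 42.7 CPM in the libraries labelled ΔlaeA (5.42 ± 0.64). Neither group overlapped with the other in any of these 4 genes, which the rule that picked them required.

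Several of the largest rises among described genes follow. An ammonium transporter gene (Mycth_105575) stood at 64.7 and 52.1 CPM in WT against 603 and 470.1 CPM in the libraries labelled ΔlaeA, a log2 fold change of 3.20 ± 0.20 (edgeR adjusted p = 9.31e-09). A high-affinity nickel or cobalt transporter gene (Mycth_2093133) was at 18.03 and 22.4 CPM in WT against 199.7 and 272 CPM in the libraries labelled ΔlaeA (3.54 ± 0.42). An aldehyde dehydrogenase gene (Mycth_113577) was at 3.08 and 2.66 CPM in WT against 29.97 and 36.1 CPM in the libraries labelled ΔlaeA (3.53 ± 0.30), an N-acyltransferase gene (Mycth_117073) at 41.6 and 73.9 CPM in WT against 350.0 and 407 CPM in the libraries labelled ΔlaeA (2.71 ± 0.29) and a carbonic anhydrase gene (Mycth_111030), for an enzyme that interconverts carbon dioxide and bicarbonate, at 6.85 and 12.8 CPM in WT against 66.7 and 54.99 CPM in the libraries labelled ΔlaeA (2.62 ± 0.53). In each of these 5 genes the WT libraries lay within 2-fold of each other. They lay below both others, which the rule that picked the genes required. A prolyl 4-hydroxylase gene (Mycth_2051636), at 21.6 and 132 CPM in WT against 402 and 438 CPM in the libraries labelled ΔlaeA, was also called (2.44 ± 0.63), but its WT libraries were further apart, and the call ended among the Avicel libraries alone (edgeR adjusted p = 0.0517) and with only the 4 libraries (adjusted p = 0.212).

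The study had named 5 amino acid permease genes as higher in ΔlaeA at 4 d, so that their direction here is not independent evidence. All 5 were above both WT libraries, an order found in 35.9% of all genes, and 2 held as higher, where 5.85% of all genes did. Mycth_2308145 stood at 49.5 and 102 CPM in WT against 1046 and 1083 CPM in the libraries labelled ΔlaeA, a rise of 3.81 ± 0.27 (edgeR adjusted p = 4.40e-08), and Mycth_2055845 at 20.8 and 27.0 CPM in WT against 90.3 and 98.1 CPM in the libraries labelled ΔlaeA, a rise of 1.98 ± 0.25. Mycth_2299723 was called only with both WT libraries in the fit (1.05 ± 0.35), and the call ended without replicate 2 labelled ΔlaeA (0.82). Mycth_2093040 (0.80 ± 0.18, adjusted p = 0.00288) and Mycth_2316511 (0.35 ± 0.41, adjusted p = 0.521) were not called. Of 6 amino acid transporter genes by description, 1 held as higher (2 in DESeq2) and 1 as lower (6.89% of all genes did). The latter, Mycth_2089733, fell, at 283 and 188 CPM in WT against 57.4 and 54.3 CPM in the libraries labelled ΔlaeA (-2.08 ± 0.24).

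Of 9 genes of protein secretion in the study's list, 1 was called (19.1% of all genes were), and none held against both WT libraries in edgeR (1 as lower in DESeq2). At an unadjusted p below 0.05, edgeR had 3 higher and 3 lower, where 4379 of 8827 genes tested passed in either direction. An ER chaperone gene (Mycth_80427) stood at 708 and 371 CPM in WT against 139 and 124 CPM in the libraries labelled ΔlaeA, called lower (-2.03 ± 0.51, edgeR adjusted p = 0.00576), and not without WT replicate 1 (-1.50, adjusted p = 0.0571). sec2 (Mycth_2310888), of vesicle traffic, gave 0.83 ± 0.16, and 1.05 against WT replicate 1 and 0.65 against WT replicate 2. The translocation protein gene Mycth_2312007 was at 104 and 310.3 CPM in WT against 379 and 322 CPM in the libraries labelled ΔlaeA, higher by 1.75 against WT replicate 1 and by 0.17 against WT replicate 2. sec5 (Mycth_2298813), sec53 (Mycth_2294943), sec72 (Mycth_2314749), Mycth_2316209, Mycth_2309221 and the other ER chaperone gene, Mycth_2300892, gave log2 fold changes of 0.10, 0.49, 0.17, -0.17, -0.73 and -0.94 with both WT libraries.

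Of 13 heat shock protein and chaperone genes tested, 3 held as lower, 2 more were lower against WT replicate 1 only and none was higher in edgeR or DESeq2 (0 at an unadjusted p below 0.05), with a median log2 fold change of -0.84. Over all genes tested, 6.89% held as lower, 3.98% were lower against WT replicate 1 only and 5.85% held as higher. At an unadjusted p below 0.05, edgeR had 6 of the 13 lower, where 4379 of 8827 genes tested passed in either direction. An Hsp70 gene (Mycth_112686), for a chaperone of protein folding, stood at 1769.8 and 1296 CPM in WT against 313 and 321 CPM in the libraries labelled ΔlaeA (-2.27 ± 0.25, edgeR adjusted p = 3.16e-06). A DnaJ gene (Mycth_112086), of the cochaperones of Hsp70, fell from 15.99 and 12.7 to 4.75 and 5.01 CPM (-1.55 ± 0.26). Among 20 ribosomal protein genes 13 lay below both WT libraries, as did 33.8% of all genes, with a median of -0.72. Their CPM summed to 6144 and 6297 in WT and to 3600 and 3716 in the libraries labelled ΔlaeA. At an unadjusted p below 0.05, edgeR had 13 lower and 2 higher. Only 1 held as lower, that of S7e (Mycth_2064349, -1.29 ± 0.17). An S2 gene (Mycth_2068188, 2.36 ± 0.24) was the 1 that held as higher, at 2.23 and 2.01 CPM in WT against 9.38 and 12.4 CPM in the libraries labelled ΔlaeA. DESeq2 held 2 as higher.

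Secondary metabolism was examined with 31 genes tested. Of these, 4 held as higher and 3 as lower against both WT libraries in edgeR, and 4 and 5 in DESeq2, where 5.85% and 6.89% of all genes held in edgeR. A thiolase-like gene (Mycth_108115), of the fold of polyketide synthases, was at 397 and 273 CPM in WT against 81.1 and 57.9 CPM in the libraries labelled ΔlaeA (-2.27 ± 0.21, edgeR adjusted p = 6.16e-07) and was chosen after its values were seen. A gene with a phosphopantetheine attachment site (Mycth_105482), the carrier part of polyketide and peptide synthases, stood at 39.7 and 96.9 CPM in WT against 6.29 and 3.91 CPM in the libraries labelled ΔlaeA. It was called lower (-3.74 ± 1.12, adjusted p = 0.0176), and the call ended without WT replicate 2 (-2.95) and without either library labelled ΔlaeA (-4.13 and -3.45). Higher was a terpenoid synthase gene (Mycth_104726), for an enzyme that builds terpene skeletons, at 107 and 44.5 CPM in WT against 467 and 687 CPM in the libraries labelled ΔlaeA, by 2.93 ± 0.39 (adjusted p = 4.98e-05), with 2.43 against WT replicate 1 and 3.70 against WT replicate 2. A gene of the AMP-dependent synthetases (Mycth_2058064) rose from 4.97 and 5.69 to 27.0 and 23.1 CPM, by 2.23 ± 0.27. An O-methyltransferase gene (Mycth_2066662) had 31 and 24 counts in WT and 0 and 1 in the libraries labelled ΔlaeA (-5.36 ± 0.73, and -4.43 and -7.73 without replicates 1 and 2 labelled ΔlaeA).

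Genes beside the terpenoid synthase gene rose as well. It lay in a run of 5 neighbouring genes that were all higher against both WT libraries, by the order of genes in the RefSeq assembly ASM22609v1. A cytochrome P450 gene next to it (Mycth_112815), for an oxygenase that often decorates such skeletons, stood at 186 and 89.4 CPM in WT against 2049.5 and 2636 CPM in the libraries labelled ΔlaeA, a rise of 4.09 ± 0.54 (edgeR adjusted p = 4.81e-05). Mycth_39133 was at 144 and 176 CPM in WT against 1238 and 1462 CPM in the libraries labelled ΔlaeA (3.08 ± 0.71) and Mycth_97365 at 40.9 and 62.5 CPM in WT against 398 and 463 CPM in the libraries labelled ΔlaeA (3.06 ± 0.42), both without a description. A major facilitator gene at the end of the run (Mycth_2053430) was at 4.12 and 4.44 CPM in WT against 16.2 and 16.9 CPM in the libraries labelled ΔlaeA (1.95 ± 0.25). In all 5 genes both libraries labelled ΔlaeA lay above both WT libraries, as in all 516 genes that held as higher, so this order adds nothing to the calls. In WT the synthase gene and its P450 neighbour were the 2 genes of the run that were higher in replicate 1.

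In total 5 runs of at least 4 neighbouring genes were higher (21 genes) and 3 were lower (12 genes). In one of the lower runs, Mycth_2305458 stood at 1179.5 and 1211 CPM in WT against 108 and 112 CPM in the libraries labelled ΔlaeA (-3.44 ± 0.20) and its neighbour Mycth_2305456 at 501 and 549.8 CPM in WT against 97.1 and 76.5 CPM in the libraries labelled ΔlaeA (-2.60 ± 0.50), with a tyrosine protein kinase gene (Mycth_2061275) at 5.86 and 6.08 CPM in WT against 2.92 and 2.05 CPM in the libraries labelled ΔlaeA between them. Another run held Mycth_41997 (4.11 ± 0.27) and Mycth_2295651 (3.75 ± 0.24), both under 10 CPM in WT and at 88.0 and 92.4 and 106 and 101 CPM in the libraries labelled ΔlaeA. A run that began with Mycth_97899, at 43.004 and 90.7 CPM in WT against 1384 and 1376 CPM in the libraries labelled ΔlaeA (4.37 ± 0.35), ended with Mycth_86146, at 651 and 713 CPM in WT against 2288 and 2247 CPM in the libraries labelled ΔlaeA (1.73 ± 0.43).

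**Figure D3:**
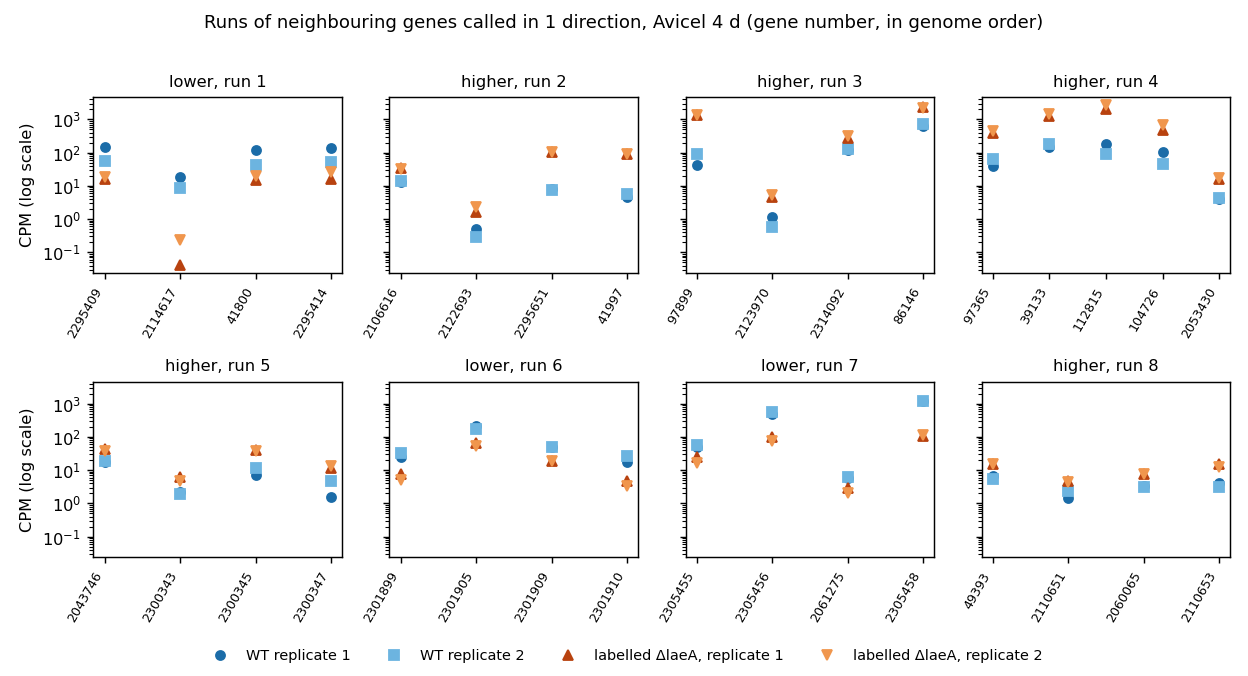
CPM (log scale, y axis) of each gene in the 8 runs of neighbouring genes called in 1 direction against both WT libraries at 4 d on Avicel, in genome order, 1 point a library. Run 4 holds the terpenoid synthase gene Mycth_104726 and the cytochrome P450 gene Mycth_112815, whose libraries labelled ΔlaeA stand at 467 to 2636 CPM against 44.5 to 186 CPM in WT.

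Cytochromes P450, oxygenases of detoxification and secondary metabolism, gave 2 genes that held as higher and 2 as lower of 13 tested, where 5.85% and 6.89% of all genes did. The lower ones were Mycth_102965, at 162 and 69.7 CPM in WT against 10.2 and 13.7 CPM in the libraries labelled ΔlaeA (-3.27 ± 0.29, edgeR adjusted p = 4.45e-07), and Mycth_112051, at 30.1 and 18.5 CPM in WT against 3.002 and 3.58 CPM in the libraries labelled ΔlaeA (-2.88 ± 0.24). The WT replicates of Mycth_102965 were more than 2-fold apart, and both lay above the libraries labelled ΔlaeA.

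Of 32 transcription factor genes by description, 3 held as lower and 0 as higher in edgeR and in DESeq2, while 8 were lower and 7 higher at an unadjusted p below 0.05. Over all genes tested, 6.89% held as lower and 5.85% as higher in edgeR, the background for every held count in this paragraph. At an unadjusted p below 0.05, 4379 of 8827 genes tested passed in either direction in edgeR, the background for counts at that level. A basic helix-loop-helix gene (Mycth_2088766) stood at 833 and 854 CPM in WT against 154 and 155 CPM in the libraries labelled ΔlaeA, with the pairs nearly level within themselves and a fall of -2.45 ± 0.12 as log2 fold change (adjusted p = 3.17e-10). A second such gene (Mycth_110028) stood at 11875 and 5674 CPM in WT against 2572 and 312 CPM in the libraries labelled ΔlaeA. It was called lower (-2.60 ± 0.96, adjusted p = 0.0450), but both pairs were wide, the call ended without WT replicate 1 (-1.98) and without replicate 2 labelled ΔlaeA (-1.79), and the value was -4.82 without replicate 1 labelled ΔlaeA. Of 21 protein kinase genes 2 held as higher, among them Mycth_2078222 at 7.2005 and 8.09 CPM in WT against 31.02 and 31.7 CPM in the libraries labelled ΔlaeA (2.03 ± 0.22), and 1 as lower. Of 6 histone genes none was called in edgeR or DESeq2 (1 higher at an unadjusted p below 0.05), with a median of 0.21, and of 17 peptidase genes 1 held as lower. Of 12 genes for reverse transcriptases or integrases 1 passed the filter on low counts, an integrase gene (Mycth_2043746), and it rose by 1.17 ± 0.24. Of 12 glycosyltransferase genes 1 held as higher, Mycth_2072543 (1.25 ± 0.23). Of 19 mitochondrial energy genes 1 held as higher (and 1 as lower in DESeq2), for subunit C of the ATPase (Mycth_112204), at 122 and 240.3 CPM in WT against 462 and 753 CPM in the libraries labelled ΔlaeA (1.74 ± 0.39). The alternative oxidase gene Mycth_109542, for a terminal oxidase that bypasses part of the respiratory chain, was at 2277 and 732 CPM in WT against 437 and 86.1 CPM in the libraries labelled ΔlaeA, lower against WT replicate 1 only (-3.12 against WT replicate 1 and -1.49 against WT replicate 2). Without replicate 1 labelled ΔlaeA the fall was -4.14 as log2 fold change, and without replicate 2 the call ended (-1.81).

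Of the 6 genes with a symbol in the reference, 3 held as lower, where 6.89% of all genes did. gla1 (Mycth_72393), the glucoamylase that frees glucose from starch, stood at 1784 and 1346 CPM in WT against 70.9 and 61.9 CPM in the libraries labelled ΔlaeA, a log2 fold change of -4.56 ± 0.32 (edgeR adjusted p = 3.59e-08). cat1 (Mycth_80916), a catalase gene, was at 90.5 and 123 CPM in WT against 18.1 and 16.3 CPM in the libraries labelled ΔlaeA (-2.64 ± 0.57), and phy1 (Mycth_104551), for a phosphatase that acts on phytate, at 59.6 and 56.5 CPM in WT against 25.3 and 24.8 CPM in the libraries labelled ΔlaeA (-1.21 ± 0.17). ganA (Mycth_43163), a galactanase gene, differed mostly within WT, at 2.93 and 43.5 CPM in WT against 39.9 and 32.9 CPM in the libraries labelled ΔlaeA. lcc1 (Mycth_51627), a laccase gene, was low in all 4 libraries, at 0.944 and 1.68 CPM in WT against 0.834 and 0.858 CPM in the libraries labelled ΔlaeA, and did not pass (-0.65 ± 0.66, adjusted p = 0.451).

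The 10 genes with opposite calls had their libraries labelled ΔlaeA between the WT libraries. Besides Mycth_101354 they included a pectate lyase gene of family PL3 (Mycth_102322), at 1.24 and 23.2 CPM in WT against 10.9 and 8.82 CPM in the libraries labelled ΔlaeA, with 2.99 against WT replicate 1 and -1.23 against WT replicate 2. Among those without a description, Mycth_97137 stood at 163 and 4799.5 CPM in WT against 2389 and 1721 CPM in the libraries labelled ΔlaeA and Mycth_2303045 at 109 and 2727 CPM in WT against 1332 and 1133 CPM in the libraries labelled ΔlaeA. These 4 were chosen after their values were seen. WT replicate 2 was the highest of the 4 libraries and WT replicate 1 the lowest in each of the 10 genes. The lack of a direction that both WT libraries shared is the rule that picked these genes.

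The difference at 4 d was then set against those at 2 d and 6 d, which rest on other libraries. Of the 516 genes that held as higher at 4 d, 21.1% were also higher at 2 d, where 4.8% of all genes were, and 8.72% were lower, against 10.7% of all genes. At 6 d 8.33% were higher and 15.5% lower, against 2.41% and 7.95%. Of the 608 genes that held as lower, 43.9% were lower at 2 d and 21.2% at 6 d, while 2.63% and 7.24% were higher on those days. The 515 genes higher against WT replicate 1 only stood otherwise, with 6.41% higher and 18.4% lower at 2 d. No test of these shares was made.

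Single genes changed course between days, by a test of the change in the difference itself, which called 2089 genes from 2 d to 4 d and 2103 from 4 d to 6 d. The cellulose-active genes summed to 29600.4 and 29042 CPM in WT at 2 d and to 6085 and 8617 CPM in the libraries labelled ΔlaeA, the reverse of the order at 4 d. At 2 d 12 of the 20 were called lower, where 10.7% of all genes were. At 6 d the sums were 994 and 923 CPM in WT and 2647 and 2424 CPM in the libraries labelled ΔlaeA. Of the 20 genes, 7 were called higher at 6 d, where 2.41% of all genes were. clr-2 stood at 139 and 194 CPM in WT and 81.2 and 101 CPM in the libraries labelled ΔlaeA at 2 d. Its difference moved up by 3.43 ± 0.61 to 4 d (edgeR adjusted p = 0.000733, Mycth_38704). For xlnR (Mycth_2310145) the move was 2.25 ± 0.49, for hac1 (Mycth_2310995) 2.36 ± 0.33 and for the NCU10006 orthologue (Mycth_90344) 2.00 ± 0.39. At 6 d clr-2 (3.50 ± 0.48), xlnR (2.13 ± 0.36) and cdt-2 (3.08 ± 0.66) were still called higher, with no called change from 4 d. At that day hac1 was not called (0.32 ± 0.23) and the NCU10006 orthologue was lower (-1.27 ± 0.27).

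The difference for pck moved the other way. pck (Mycth_2315623) stood at 175 and 171 CPM in WT and at 1468 and 1652 CPM in the libraries labelled ΔlaeA at 2 d, above WT, and below WT at 4 d. The change of the difference was -7.06 ± 0.72 (edgeR adjusted p = 1.04e-05), and from 4 d to 6 d it was 4.01 ± 0.67. The glucose transporter gene Mycth_98222 was also above WT at 2 d, at 108 and 93.1 CPM over 12.1 and 10.2 CPM, and below it at 6 d, at 36.0 and 42.8 CPM under 161 and 168 CPM, a change from 4 d of -6.15 ± 0.25 (adjusted p = 1.59e-10). The terpenoid synthase gene Mycth_104726 stood at 13.4 and 14.4 CPM in WT and 16.9 and 10.9 CPM in the libraries labelled ΔlaeA at 2 d, and at 916 and 969.9 CPM in WT and 113 and 121 CPM in the others at 6 d. Its level in WT thus rose after 4 d to above that of the libraries labelled ΔlaeA, with log2 fold changes of 2.93 at 4 d and -3.01 at 6 d.

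**Figure D4:**
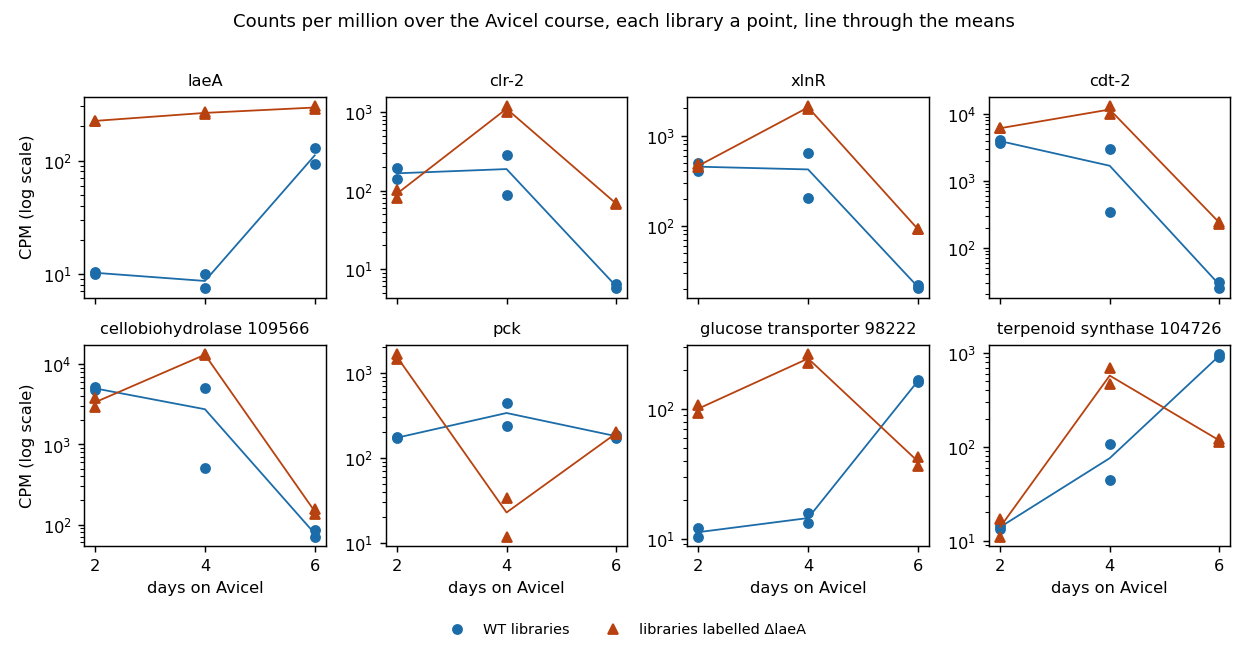
CPM (log scale, y axis) of 8 genes at 2, 4 and 6 d on Avicel (x axis), circles for WT libraries, triangles for libraries labelled ΔlaeA, lines through the means of 2 libraries. clr-2, xlnR, cdt-2 and the cellobiohydrolase gene stand above WT at 4 d, and clr-2, xlnR and cdt-2 were also called higher at 6 d. pck crosses from above WT at 2 d to below WT at 4 d. The WT pair is wide at 4 d for clr-2, xlnR, cdt-2 and the cellobiohydrolase gene.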

How the data were processed

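RNA-seq libraries had been mapped by the authors with TopHat2 (2.0.8b) and counted per gene with HTSeq (0.5.4p2), as named in the submitters' processing notes; the methods name another HTSeq version, and of the genome build and of the strand setting nothing was given in the sources used here. Reads of overlapping or antisense genes can therefore not be told apart. The deposited table holds raw counts per gene. Of 24 titled libraries, 23 had counts; 1 column deposited as RPKM was not used. 2 lines that name no gene were left out.

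Counts of 23 libraries in 12 groups (9110 genes, 8827 after edgeR's filterByExpr) were scaled by TMM and fitted with edgeR 4.0.16 (robust quasi-likelihood, R 4.3.3), 1 coefficient a group, 11 residual degrees of freedom. CPM are TMM-scaled counts per 1000000. P-values were adjusted over all genes tested by Benjamini-Hochberg. The change of a difference between days was an interaction contrast. With 3 counts as the floor, a library of 4 d detects 0.0986 to 0.149 CPM, which covers counting error only. The fit was checked on simulated data. Alternatives were DESeq2 1.42.0, other scalings and filters, fewer libraries, a replicate block and each 4 d library left out. Figures were drawn with matplotlib 3.10.9 (Python 3.11.15).

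Members, lists and rules were chosen with earlier results of these data known. 6 lists came from IDs in the study's text, and 17 from gene descriptions in the part of a supplementary table at hand, which covers 865 genes. Named genes were drawn from those with a study ID, called cellulose-active genes, the 2 called genes of each other list with the largest change each way, the 12 largest described rises and falls that held at 10 CPM or more, the 5 described genes that differ most between the single-WT fits, the 2 largest rises and falls without a description, runs of neighbouring genes and genes with a symbol. Not every gene under this rule is printed. The 12 genes said to be chosen after their values were seen are outside this rule. Genes under 10 CPM are mostly summarised, and some above it are not printed, among them Mycth_100541, Mycth_2064976, Mycth_109499 and Mycth_2055311. Names and gene order came from the RefSeq table of ASM22609v1, to which 9087 IDs matched.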

Additional observations from a re-analysis of the deposited data

Results flagged for a closer look

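Genes of the study's lists drew attention where the log2 difference between the libraries labelled ΔlaeA and WT changed between days, by a test of the change itself (edgeR interaction, adjusted p below 0.05 and at least 2-fold).

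From 2 d to 4 d the difference moved up for amino acid permease (Mycth_2055845) 1.54, sec53 (Mycth_2294943) 1.27, xlnR (Mycth_2310145) 2.25, sec2 (Mycth_2310888) 1.13, hac1 (Mycth_2310995) 2.36, translocation protein (Mycth_2312007) 1.94, translocation protein (Mycth_2316209) 1.09, clr-2 (Mycth_38704) 3.43 and NCU10006 orthologue (Mycth_90344) 2.00. It moved down for glucose transporter (Mycth_112491) -3.30, fbp1 (Mycth_2306943) -2.15, pck (Mycth_2315623) -7.06 and phosphoglycerate kinase (Mycth_2316240) -1.72. Changes of this kind were found for 12.9% of all genes upward and 10.7% downward.

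From 4 d to 6 d it moved up for ER chaperone (Mycth_2300892) 1.24, fbp1 (Mycth_2306943) 2.04, cre-1 (Mycth_2310085) 1.07, pck (Mycth_2315623) 4.01, translocation protein (Mycth_2316209) 1.196, phosphoglycerate kinase (Mycth_2316240) 1.02, grf-1 (Mycth_37566) 1.03 and ER chaperone (Mycth_80427) 2.88. It moved down for laeA (Mycth_2294559) -3.53, laeB (Mycth_2295350) -2.15, amino acid permease (Mycth_2299723) -1.74, amino acid permease (Mycth_2308145) -4.95, NCU10006 orthologue (Mycth_90344) -1.98 and glucose transporter (Mycth_98222) -6.15. All genes gave 11.1% upward and 12.8% downward. The 4 d libraries enter both changes, so these share values, and the WT libraries of 4 d are the wider pair.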

How the results depend on the processing

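Every count over all genes stayed within 1.5 times its value under the alternatives run. In lists, DESeq2 held other numbers than edgeR against both WT libraries, with 5 instead of 3 lower in secondary metabolism, 2 instead of 1 higher among amino acid transporters and among ribosomal proteins, 2 instead of 3 lower among sugar transporters, 0 instead of 1 lower among other major facilitator genes, and 1 instead of 0 lower in secretion and among mitochondrial genes. Under DESeq2, other scalings and filters, fewer libraries and the replicate block, 653 to 843 genes were higher and 750 to 910 lower, 456 to 569 and 553 to 658 held against both WT libraries, and 440 to 589 and 401 to 479 rested on 1 of them. The change of the difference was called for 1906 to 2184 genes from 2 d to 4 d and for 1838 to 2192 from 4 d to 6 d. Leaving out each 4 d library in turn gave 575 to 1041 higher, 726 to 959 lower, 1732 to 2405 and 1737 to 2407 genes. With the replicate number as a block, 809 genes were higher and 870 lower, and 1066 of the 1124 genes held against both WT libraries were shared. The deviations of same-numbered libraries correlated with 0.138 at 4 d, -0.14 at 2 d and -0.16 at 6 d over 8827 genes. The labels give these libraries only a shared number, and whether they share a culture or batch was not tested.

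Some genes that were not called with both WT libraries turned in direction with the library left out. The log2 fold change ran from -1.23 to 2.06 for Mycth_101354, from -1.23 to 2.99 for Mycth_102322, from -0.82 to 1.33 for Mycth_109444, from -0.88 to 2.49 for Mycth_112089, from -0.93 to 3.66 for Mycth_112399, from -0.88 to 5.46 for Mycth_2066457, from -0.19 to 0.064 for Mycth_2089183, from -0.041 to 0.26 for Mycth_2298813, from -1.15 to 3.50 for Mycth_2303045, from -0.018 to 0.38 for Mycth_2314749, from -0.56 to 0.11 for Mycth_2316209, from -0.26 to 3.63 for Mycth_43163 and from -1.23 to 3.66 for Mycth_97137. For Mycth_112089 it was 0.020 with library totals only, 0.023 with the filter at 10 CPM and 0.36 with the replicate block, and for Mycth_2303045 0.0059 with the block. The cause was not tested. Genes under 10 CPM have no value under the filter at 10 CPM, and differences under the floor of 3 counts were not detectable at this depth.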

Other observations

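The libraries labelled ΔlaeA also differed from each other. At 4 d 107 genes were at least 2-fold apart in this pair at 10 CPM or more, 82 higher in replicate 1 and 25 in replicate 2. The basic helix-loop-helix gene Mycth_110028 stood at 2572 CPM in replicate 1 and 312 CPM in replicate 2. The alternative oxidase gene Mycth_109542 stood at 437 and 86.1 CPM, and pck (Mycth_2315623) at 33.9 and 11.7 CPM.

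Across genes, which are not independent replicates, log2 CPM of WT replicate 1 at 4 d correlated with r = 0.914 and 0.914 with the 2 WT libraries of 6 d and with 0.889 and 0.895 with those of 2 d. WT replicate 2 correlated with 0.903 and 0.910 with 2 d and with 0.895 and 0.893 with 6 d. With the libraries labelled ΔlaeA of 4 d, the values were 0.891 and 0.873 for WT replicate 1 and 0.924 and 0.911 for WT replicate 2. These values are over 8827 genes, and what sets the WT libraries apart was not tested.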
